A study of Drosophila melanogaster with 4 samples.

Results

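The mitochondrial ribosomal protein genes of the fly were described as every row of the deposited table whose gene name begins with mRpL or mRpS followed by a number. This name rule found 72 of 15495 rows, 46 for proteins of the large subunit and 26 for proteins of the small subunit. RNA had been sequenced from intestinal stem cells, whose divisions replace the epithelium of the adult gut of Drosophila melanogaster, and which were sorted from a pool of 100 guts for each library. In the Piwi RNAi group (2 libraries), RNA interference against Piwi, a nuclear Argonaute protein that represses transposable elements, had been expressed for 7 days at 29 °C. In the mCherry RNAi group (2 libraries), RNA interference against the foreign fluorescent protein mCherry had been expressed for the same time at the same temperature. The source labels name PiwiRNAi for the Piwi RNAi libraries and yw for the mCherry RNAi libraries. The sources used here do not give the driver of the RNA interference or the relation between these genetic backgrounds.

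Mitochondria keep their own ribosomes, which translate the few messenger RNAs of the mitochondrial genome. Those messages encode core subunits of the respiratory chain and of the ATP synthase. The ribosomal RNAs come from the mitochondrial genome, whereas every protein of these ribosomes is encoded in the nucleus, made in the cytosol and imported. Some of the proteins have bacterial counterparts, and others were added during the evolution of mitochondria.

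Values are FPKM, the number of fragments of a gene divided by the length of its transcript and by the number of mapped fragments, so that levels can be set side by side between genes. A difference is the mean of Piwi RNAi less the mean of mCherry RNAi, taken as log2(FPKM + 1), which understates the change of low genes. Every gene that averaged 1 FPKM or more over the 4 libraries was tested with limma, 8313 in all, two-sided, with Benjamini-Hochberg adjustment over all of them and a threshold of 0.05. With 2 libraries per group, p-values measure only the spread between pools of guts.

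The libraries held an estimated 1610000 and 2280000 fragments for Piwi RNAi and 2040000 and 2070000 for mCherry RNAi. piwi itself was listed at 0.208 and 0.442 FPKM in Piwi RNAi libraries, against 0.495 and 1.94 FPKM in mCherry RNAi libraries, with a mean under the 1 FPKM filter. Stem cell and enteroblast markers were present in every library: esg, the transcription factor that marks these cells, had 415.9 and 378.5 FPKM in Piwi RNAi libraries, against 239.7 and 301.9 FPKM in mCherry RNAi libraries. The 9 markers of these cells had a median difference of 0.56, and of 0.38 without mCherry RNAi replicate 1. Of the 9, 7 were higher in both Piwi RNAi libraries, beside 51.5% of all tested genes. mCherry RNAi replicate 1 stood apart in the 17 enterocyte markers (digestive enzymes and absorptive cell genes), whose summed level was 2140 and 1041 FPKM in the Piwi RNAi libraries, against 21728 FPKM in mCherry RNAi replicate 1 and 1691 FPKM in mCherry RNAi replicate 2. None of the 17 was at 0 in any library. The 10 enteroendocrine markers summed to 264.9 and 479.3 FPKM in Piwi RNAi libraries, against 2800 and 5519 FPKM in mCherry RNAi libraries. Of these 10, 0 and 2 were at 0 in Piwi RNAi libraries, against 0 and 1 in mCherry RNAi libraries. The 14 visceral muscle markers summed to 321.2 and 308.6 FPKM in Piwi RNAi libraries, against 336.1 and 293.5 FPKM in mCherry RNAi libraries. The medians of the 12 tested were less even, at 0.66 and 0.53 FPKM in Piwi RNAi libraries, against 11.6 and 0.51 FPKM in mCherry RNAi libraries. Of the 12 tested, 2 were higher and 2 were lower in both Piwi RNAi libraries, beside 51.5% and 13.0% of all tested genes. The muscle gene up had 0.47 and 0.65 FPKM in Piwi RNAi libraries, against 21.3 and 6.24 FPKM in mCherry RNAi libraries. In the same list vn went the other way, with 18.7 and 5.22 FPKM in Piwi RNAi libraries, against 1.17 and 3.83 FPKM in mCherry RNAi libraries. The muscle genes Mlc1, wupA and Mf were at 0 in every library but mCherry RNAi replicate 1. Medians of the subunits, number classes and gene lists are therefore also given without mCherry RNAi replicate 1, as are the differences of single genes where leaving it out moved them by over 1.5 times. Leaving out mCherry RNAi replicate 1 does not even out the enteroendocrine markers. The median difference of the 8 tested was -2.22 with all libraries and -2.79 without that library. That of the enterocyte markers went from -1.70 over 17 tested genes to -0.23 over 16. For the visceral muscle markers it went from -1.16 over 12 tested genes to -0.21 over 4. The part of other cell types in the results was not tested.

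All 72 genes were measured in every library and all passed the expression filter. Their median level was 48.5 and 49.3 FPKM in Piwi RNAi libraries, against 26.8 and 35.7 FPKM in mCherry RNAi libraries. Both Piwi RNAi medians lay above both mCherry RNAi medians, and mCherry RNAi replicate 1 had the lowest. The median of all tested genes showed the same order at lower levels, with 16.3 and 16.2 FPKM in Piwi RNAi libraries, against 11.3 and 12.4 FPKM in mCherry RNAi libraries. The ratio of the 2 medians within a library was 2.97 and 3.05 in Piwi RNAi libraries, against 2.36 and 2.87 in mCherry RNAi libraries. In bulk samples such as these, fewer cells of a type and less RNA per cell cannot be told apart.

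**Figure D1:**
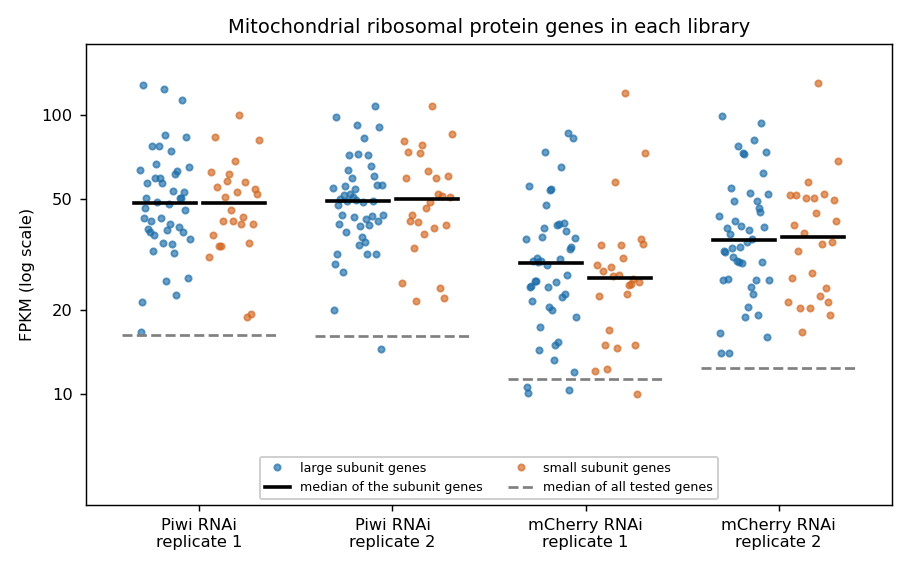
Level of each of the 72 mitochondrial ribosomal protein genes (FPKM, log axis) in the 4 libraries, with large subunit genes in blue and small subunit genes in orange. Solid lines are medians per subunit and dashed lines the median of all tested genes: the subunit medians lie between 48.5 and 50.03 FPKM in the Piwi RNAi libraries and between 26.1 and 36.5 FPKM in the mCherry RNAi libraries.

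Among the 72 genes the highest mean level was 7.15 times the lowest. Each of the 72 means lay above that of the median tested gene, 14.4 FPKM, and the median member stood at the 77.7 percentile of tested genes. The subunits had similar medians. Large subunit genes had medians of 48.5 and 49.3 FPKM in Piwi RNAi libraries, against 29.4 and 35.7 FPKM in mCherry RNAi libraries. Small subunit genes had medians of 48.5 and 50.03 FPKM in Piwi RNAi libraries, against 26.1 and 36.5 FPKM in mCherry RNAi libraries. As a description across genes (n = 72), Pearson's r of log2 levels was 0.846 between the Piwi RNAi libraries, 0.826 between the mCherry RNAi libraries and 0.895 between the group means. Genes of 1 library share its depth and scaling and are not independent replicates.

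No mitochondrial ribosomal protein gene passed the test between Piwi RNAi and mCherry RNAi, where 98 of 8313 tested genes, or 1.18%, did. The smallest adjusted p of a member was 0.102 (limma, Benjamini-Hochberg), for mRpS16. At an unadjusted p under 0.05, 24 of the 72 had higher values in Piwi RNAi (33.3%) and 0 had lower values, beside 21.7% of all tested genes that were higher, 4.85% that were lower and 26.6% in either direction. The groups did not overlap for 63 genes. In 62 of these (86.1%) both Piwi RNAi libraries lay above both mCherry RNAi libraries, as did 51.5% of all tested genes. In 1 (1.39%), mRpS28, both Piwi RNAi libraries lay below, as did 13.0% of all tested genes. The difference was above 0 for 68 members (94.4%), beside 70.0% of all tested genes.

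The median difference of the members was 0.61, beside 0.37 for all tested genes, which leaves 0.24 above the shift of the whole table. It was 0.58 for large subunit genes, of which 39 of 46 (84.8%) were higher in both Piwi RNAi libraries. It was 0.67 for small subunit genes, of which 23 of 26 (88.5%) were. As ratios of group means, Piwi RNAi over mCherry RNAi, the 72 genes ranged from 0.831 to 2.38 with a median of 1.51. The ratio was at least 2 for 6 genes, between 1.5 and 2 for 30, between 1 and 1.5 for 32 and under 1 for 4. Scaling the libraries by the median of ratios takes the median of all genes to -0.02. The members' median was then 0.19, with 24 of 72 (33.3%) higher in both Piwi RNAi libraries beside 25.7% of all genes, and 8 of 72 lower in both beside 27.4%.

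**Figure D2:**
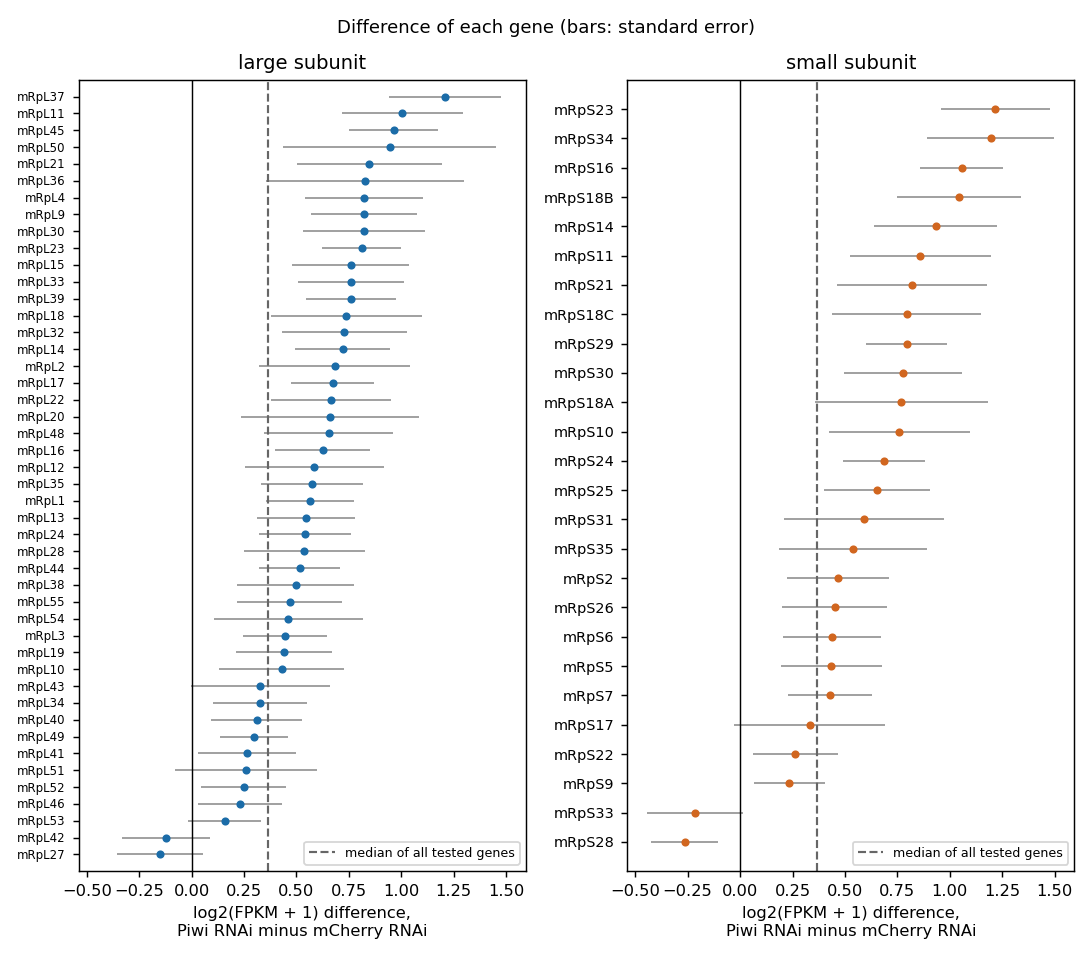
Difference of each mitochondrial ribosomal protein gene, Piwi RNAi less mCherry RNAi in log2(FPKM + 1), with its standard error from limma as the bar and the median of all tested genes, 0.37, as a dashed line. Genes are ordered by difference within each subunit, and 68 of the 72 points lie above 0.

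The widest differences in the small subunit were those of mRpS23, mRpS34, mRpS16 and mRpS18B. mRpS23, a protein without a bacterial counterpart, had 45.9 and 37.6 FPKM in Piwi RNAi libraries, against 14.7 and 20.4 FPKM in mCherry RNAi libraries. The groups did not overlap, and the difference was 1.22 ± 0.26 (SE, n = 2 each; limma adjusted p = 0.127). mRpS34, another protein specific to mitochondrial ribosomes, had 35.0 and 51.4 FPKM in Piwi RNAi libraries, against 15.1 and 21.4 FPKM in mCherry RNAi libraries. Again both Piwi RNAi libraries were the higher ones, with a difference of 1.19 ± 0.30 (limma adjusted p = 0.139). mRpS16, the counterpart of a bacterial protein needed for assembly of the small subunit, had 83.3 and 74.0 FPKM in Piwi RNAi libraries, against 34.2 and 40.4 FPKM in mCherry RNAi libraries. Its difference of 1.06 ± 0.20 had the smallest p of the 72 genes.

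The 3 genes mRpS18A, mRpS18B and mRpS18C encode paralogs of a single bacterial protein. In mammals, structures place the counterpart of mRpS18A in the large subunit, so the split by symbol is not a split by position for every gene. mRpS18A had 34.0 and 43.8 FPKM in Piwi RNAi libraries, against 15.01 and 32.7 FPKM in mCherry RNAi libraries. mRpS18B had 34.0 and 33.5 FPKM in Piwi RNAi libraries, against 12.3 and 20.4 FPKM in mCherry RNAi libraries. mRpS18C had 41.7 and 21.6 FPKM in Piwi RNAi libraries, against 17.1 and 16.8 FPKM in mCherry RNAi libraries. All 3 were higher in both Piwi RNAi libraries, with differences of 0.77 ± 0.41, 1.04 ± 0.30 and 0.79 ± 0.36 in the order A, B and C (SE, n = 2 each), and none passed the test. Single libraries weighed on A and C. mRpS18A stood at 0.23 without mCherry RNAi replicate 1 and at 1.31 without mCherry RNAi replicate 2. mRpS18C stood at 0.34 without Piwi RNAi replicate 1 and at 1.25 without Piwi RNAi replicate 2.

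mRpS29, the fly counterpart of the GTP-binding protein DAP3 of mammals, was among the tightest of the set. It had 40.7 and 39.5 FPKM in Piwi RNAi libraries, against 22.9 and 22.5 FPKM in mCherry RNAi libraries. Replicates differed little in either group and the groups were well apart, with a difference of 0.79 ± 0.19 (limma adjusted p = 0.139). mRpS30, whose mammalian counterpart also lies in the large subunit in structures, had 43.1 and 59.5 FPKM in Piwi RNAi libraries, against 24.6 and 34.6 FPKM in mCherry RNAi libraries. The groups did not overlap there either, at 0.77 ± 0.28.

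The small subunit also held the member of highest mean level, mRpS28, whose mammalian counterpart is related to a bacterial small subunit protein. It had 99.9 and 107.9 FPKM in Piwi RNAi libraries, against 119.6 and 130.4 FPKM in mCherry RNAi libraries. It was the only one of the 72 with both Piwi RNAi libraries below both mCherry RNAi libraries, at -0.26 ± 0.16 (limma adjusted p = 0.312). mRpS33 had 18.9 and 24.1 FPKM in Piwi RNAi libraries, against 25.8 and 24.0 FPKM in mCherry RNAi libraries, so that the groups overlapped (-0.21 ± 0.23, and -0.05 to -0.38 with either Piwi RNAi library left out). mRpS9, whose bacterial counterpart contacts the transfer RNA in the peptidyl site, had 81.4 and 85.6 FPKM in Piwi RNAi libraries, against 73.1 and 68.5 FPKM in mCherry RNAi libraries. mRpS22, the next in level, had 61.8 and 78.2 FPKM in Piwi RNAi libraries, against 57.7 and 57.8 FPKM in mCherry RNAi libraries. Both stood higher in Piwi RNAi by less than the median of all tested genes, at 0.24 ± 0.17 for mRpS9 and 0.26 ± 0.20 for mRpS22 (0.10 to 0.43 with either Piwi RNAi library left out), and at -0.19 and -0.16 when libraries were scaled by the median of ratios. The lowest level in the subunit was that of mRpS35, with 19.3 and 22.1 FPKM in Piwi RNAi libraries, against 10.03 and 19.3 FPKM in mCherry RNAi libraries. Its difference was 0.54 ± 0.35 with all libraries, 0.10 without mCherry RNAi replicate 1 and 0.98 without mCherry RNAi replicate 2.

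In the large subunit the widest differences were those of mRpL37, mRpL11, mRpL45 and mRpL50. mRpL37, a protein specific to mitochondrial ribosomes, had 48.0 and 36.7 FPKM in Piwi RNAi libraries, against 15.03 and 20.6 FPKM in mCherry RNAi libraries. The groups were far apart, at 1.21 ± 0.27 (limma adjusted p = 0.132). mRpL45, whose mammalian counterpart sits at the exit of the peptide tunnel next to the inner membrane, had 39.9 and 43.7 FPKM in Piwi RNAi libraries, against 22.8 and 19.2 FPKM in mCherry RNAi libraries. It was one of the minority in which mCherry RNAi replicate 1 was not the lowest library, at 0.96 ± 0.21 (limma adjusted p = 0.132). mRpL50 had 38.3 and 31.8 FPKM in Piwi RNAi libraries, against 10.3 and 29.7 FPKM in mCherry RNAi libraries. Most of its difference of 0.94 ± 0.51 was between mCherry RNAi replicate 1 and the other 3 libraries: it was 0.23 without that library and 1.66 without mCherry RNAi replicate 2.

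The stalk of the large subunit, which receives the translation factors, is built with mRpL10, mRpL11 and mRpL12. mRpL12, the protein that binds the factors and the second highest large subunit gene here, had 128.2 and 98.5 FPKM in Piwi RNAi libraries, against 55.8 and 99.5 FPKM in mCherry RNAi libraries. Its groups overlapped through mCherry RNAi replicate 2, at 0.59 ± 0.33, which was 0.17 without mCherry RNAi replicate 1 and 0.997 without mCherry RNAi replicate 2. mRpL11, at the base of the stalk, had 21.4 and 29.3 FPKM in Piwi RNAi libraries, against 10.1 and 14.1 FPKM in mCherry RNAi libraries. It did not overlap, at 1.01 ± 0.29 (limma adjusted p = 0.151). mRpL10, which anchors mRpL12, was the lowest member of the large subunit, with 16.7 and 20.1 FPKM in Piwi RNAi libraries, against 10.7 and 16.6 FPKM in mCherry RNAi libraries. The Piwi RNAi libraries were higher by 0.43 ± 0.30, with replicate 1 nearly level with mCherry RNAi replicate 2, and by 0.13 or 0.73 when mCherry RNAi replicate 1 or 2 was left out.

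The other highly expressed large subunit genes were mRpL49 and mRpL33. mRpL49 had 113.7 and 107.5 FPKM in Piwi RNAi libraries, against 86.3 and 93.6 FPKM in mCherry RNAi libraries, a difference of 0.30 ± 0.16 (-0.13 with the median of ratios as the scaling). mRpL33, a short protein with a bacterial counterpart, had 123.8 and 92.6 FPKM in Piwi RNAi libraries, against 53.9 and 73.3 FPKM in mCherry RNAi libraries, a difference of 0.76 ± 0.25. Neither gene overlapped between groups and neither passed the test. The smallest differences of the subunit belonged to mRpL53, mRpL42 and mRpL27. mRpL53 had 83.4 and 91.1 FPKM in Piwi RNAi libraries, against 82.8 and 73.5 FPKM in mCherry RNAi libraries (0.16 ± 0.18, 0.24 without mCherry RNAi replicate 1 and -0.26 after that scaling). mRpL42 had 61.8 and 72.0 FPKM in Piwi RNAi libraries, against 64.99 and 81.3 FPKM in mCherry RNAi libraries (-0.12 ± 0.21, and -0.28 without mCherry RNAi replicate 1). mRpL27, whose bacterial counterpart reaches the peptidyl transferase centre, had 77.4 and 59.8 FPKM in Piwi RNAi libraries, against 73.8 and 77.6 FPKM in mCherry RNAi libraries (-0.15 ± 0.20). The last 2 overlapped between groups. Across the 72 genes the difference had a Pearson's r of -0.423 with the mean log2 level, so that highly expressed members tended to have smaller differences. This is a description over genes that share 4 libraries, and the level and the difference of a gene come from the same 4 values.

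A check of tko, bonsai and current gene symbols found 3 mitoribosomal genes that the name rule misses because the table lists them under other names. Any with unrelated current symbols would not have been found. tko encodes the protein of the decoding centre in the small subunit and is known for the seizure-like paralysis of its mutant flies. It had 48.4 and 48.7 FPKM in Piwi RNAi libraries, against 17.5 and 43.2 FPKM in mCherry RNAi libraries (0.79 ± 0.44). The difference of tko was 0.16 when mCherry RNAi replicate 1 was left out, against 1.42 when replicate 2 was. Rlc1, whose current symbol is mRpL47, had 41.3 and 46.7 FPKM in Piwi RNAi libraries, against 19.3 and 27.2 FPKM in mCherry RNAi libraries (0.91 ± 0.25). bonsai, the small subunit protein mRpS15 by homology, had 41.2 and 35.6 FPKM in Piwi RNAi libraries, against 21.7 and 25.8 FPKM in mCherry RNAi libraries (0.67 ± 0.22). All 3 were higher in both Piwi RNAi libraries and within the range of the 72, and none passed the test.

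Most members had their lowest value in the same library. mCherry RNAi replicate 1 was the lowest of the 4 libraries for 57 of the 72 genes (79.2%), beside 51.6% of all tested genes. It was below mCherry RNAi replicate 2 for 60 of the 72. The median of replicate 2 minus replicate 1 was 0.03 within Piwi RNAi and 0.40 within mCherry RNAi, beside -0.01 and 0.18 for all tested genes. Without mCherry RNAi replicate 1, the median difference of the members was 0.37, beside 0.28 for all genes tested then, with 0.39 for the large subunit and 0.33 for the small subunit. Their excess over all genes was thus 0.09 without that library, and 0.24 with it. Of the 72 members, 62 had both Piwi RNAi values above the remaining mCherry RNAi library, beside 59.8% of the genes tested. This count could not fall when a library was left out, so it does not show that the separation holds without that library. That library also had the highest enterocyte marker level, and its part in these differences beyond the values without it was not tested.

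**Figure D3:**
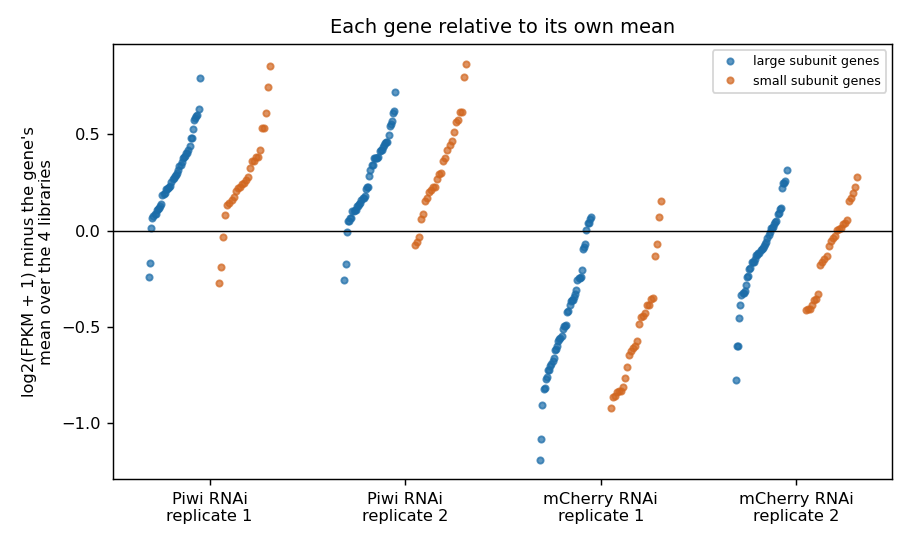
Deviation of each mitochondrial ribosomal protein gene from its own mean over the 4 libraries in log2(FPKM + 1), per library, with genes sorted by deviation within each subunit. mCherry RNAi replicate 1 is the lowest library for 57 of the 72 genes, and the Piwi RNAi libraries lie mostly above 0.

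The genes were also set side by side by their numbers. Numbers up to L36 and S21 are those of bacterial ribosomal proteins, with some exceptions, and higher numbers were given to proteins found in mitochondrial ribosomes. The 42 genes with numbers in the bacterial range had a median difference of 0.68, and 38 of them were higher in both Piwi RNAi libraries, beside 51.5% of all tested genes. The 30 genes above that range had a median of 0.48, and 24 were higher in both. The split was wider in the large subunit, with 0.67 for 28 genes in the bacterial range and 0.39 for 18 above it, than in the small subunit, with 0.76 for 14 genes and 0.62 for 12. Without mCherry RNAi replicate 1 the medians were 0.44 in the bacterial range and 0.25 above it. They were then 0.47 and 0.24 in the large subunit, but 0.33 and 0.32 in the small subunit, where the classes no longer stood apart. The difference between these classes was not tested.

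The depth behind these values was modest. For the 54 members with a single annotated transcript, the values correspond to 10 to 227 fragments per gene and library. Their median was 51.5 and 69 fragments in Piwi RNAi libraries, against 32.5 and 44.5 fragments in mCherry RNAi libraries. The median absolute log2 difference between replicates was 0.25 in Piwi RNAi, where counting error alone would give 0.18. It was 0.44 in mCherry RNAi, where counting error alone would give 0.22. Set on summed fragments, the 95% interval of the ratio of Piwi RNAi over mCherry RNAi lay above 1 for 40 of the 54 genes. It lay below 1 for mRpS28 alone, at a ratio of 0.836 (0.6999 to 0.9986). These intervals cover counting error only and not the spread between pools. They were not computed for other genes, so no share over all genes stands beside these counts. A ratio of 1 also leaves in the shift of all tested genes, whose median difference was 0.37.

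Mitochondrial ribosomal protein genes are short and closely spaced with their neighbours. The Ensembl annotation gave a median transcript length of 778.5 nt for members, beside 1878 nt for all tested genes, and the median length of the encoded protein was 190.5 residues, beside 439. Across members, the difference had an r of 0.09 with log2 transcript length. For 50 of the 72 (69.4%) another gene started within 500 nt on the opposite strand, as it did for 34.3% of all tested genes. Of those divergent partners, 44 were tested, 0 passed the test and 28 (63.6%) were higher in both Piwi RNAi libraries, with a median difference of 0.53, beside 1.18% of all tested genes that passed and 51.5% that were higher in both. The annotated starts of mRpL39 and Prosbeta2, a catalytic subunit of the proteasome, are 285 nt apart. mRpL39 had 74.3 and 83.2 FPKM in Piwi RNAi libraries, against 40.4 and 52.5 FPKM in mCherry RNAi libraries. Prosbeta2 had 327.0 and 353.3 FPKM in Piwi RNAi libraries, against 89.5 and 128.0 FPKM in mCherry RNAi libraries. The groups did not overlap for either gene, at 0.76 for mRpL39 and 1.66 for Prosbeta2 (limma adjusted p = 0.0532 for Prosbeta2). This pair was chosen after its values were seen.

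Exons of 42 members overlap those of another gene, and no source used here says whether fragments were counted by strand, so fragments from overlapping genes cannot be told apart. The overlap was at least 100 nt for 9 members. mRpL53 lies entirely within an exon stretch of CG33155 on the same strand, over 829 nt, and its value is uncertain. mRpS24 shares 332 nt with TBC1d7, mRpS9 shares 325 nt with the gene of the mitochondrial arginyl-tRNA synthetase and mRpS21 shares 228 nt with CG8870, each on the opposite strand. Without the 9 members, 53 of 63 were higher in both Piwi RNAi libraries and the median difference was 0.59.

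Other gene lists of mitochondrial function were set beside the ribosomal proteins, and the differences between lists were not tested. The counts below stand beside 51.5% of all tested genes that were higher in both Piwi RNAi libraries with FPKM as deposited, and 25.7% under the median of ratios. Of the 12 mitochondrial translation factors tested, 10 were higher in both Piwi RNAi libraries and 0 passed the test, with a median difference of 0.82. Under the median of ratios 6 of the 12 were higher in both with a median of 0.44, and the median was 0.39 without mCherry RNAi replicate 1. EfTuM, the elongation factor that brings transfer RNA to the mitochondrial ribosome, had 142 and 136 FPKM in Piwi RNAi libraries, against 67.3 and 95.8 FPKM in mCherry RNAi libraries (0.79 ± 0.22). CG5463, now GatB and a subunit of the amidotransferase that turns glutamate on the glutamine tRNA into glutamine, had 9.999 and 9.402 FPKM in Piwi RNAi libraries, against 4.098 and 2.301 FPKM in mCherry RNAi libraries. Of 14 mitochondrial aminoacyl-tRNA synthetases, 13 were higher in both Piwi RNAi libraries and 0 passed, with a median of 0.71. That became 7 of 14 with a median of 0.38 under the median of ratios, and a median of 0.47 without mCherry RNAi replicate 1. Of 18 genes of mitochondrial DNA and RNA maintenance, 15 were higher in both and 0 passed, with a median of 0.66. That became 9 of 18 with a median of 0.27 under the median of ratios, and a median of 0.45 without mCherry RNAi replicate 1. Of these the smallest p was that of CG15896, now mldr, with 13.95 and 14.98 FPKM in Piwi RNAi libraries, against 4.26 and 4.68 FPKM in mCherry RNAi libraries (ratio of means 3.24, limma adjusted p = 0.0831).

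Nuclear-encoded genes of oxidative phosphorylation, many of whose products assemble with the proteins that mitochondrial ribosomes make, had a lower median difference. It was 0.23 over 69 tested genes, 44 of them higher and 5 lower in both Piwi RNAi libraries. With the median of ratios as the scaling it was -0.19, with 4 higher and 37 lower in both. Of all tested genes, 13.0% were lower in both as deposited and 27.4% under the median of ratios. No gene of the list passed the test under either scaling, and the median was 0.18 without mCherry RNAi replicate 1. The 15 genes of mitochondrial import and chaperones had a median of 0.47, with 12 higher in both. Under the median of ratios the median was 0.05, with 4 higher and 3 lower in both, and without mCherry RNAi replicate 1 it was 0.21. The 8 mitochondrial proteases had a median of 0.67, with 7 higher in both, a median of 0.31 with 4 higher in both under the median of ratios, and a median of 0.54 without mCherry RNAi replicate 1. The 11 regulators of mitochondrial gene expression had a median of 0.39, with 6 higher in both, but a median of -0.04 under the median of ratios and of 0.21 without mCherry RNAi replicate 1. In all 3 of these lists 0 genes passed. Among the regulators the smallest p-values were those of Trap1, a mitochondrial chaperone, and Mnt, a partner of Max that opposes Myc. Mnt had 18.8 and 13.4 FPKM in Piwi RNAi libraries, against 8.53 and 8.72 FPKM in mCherry RNAi libraries. Its groups did not overlap, at 0.81 ± 0.27 (limma adjusted p = 0.166).

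The genes of the cytosolic ribosome had lower values in Piwi RNAi. Of 85 tested genes, 83 were lower and 0 were higher in both Piwi RNAi libraries, and 29 passed the test, all lower. Among all tested genes, 13.0% were lower and 51.5% were higher in both, and 1.18% passed. The median difference of the 85 genes was -0.36 with FPKM as deposited and -0.78 after scaling by the median of ratios, where 0 passed. Without mCherry RNAi replicate 1 the median was -0.35 with FPKM as deposited. Under quantile normalization it was -0.0034, with 28 genes higher and 28 lower in both Piwi RNAi libraries. These stand beside 32.7% higher and 19.8% lower among all genes. There 1 of the 85 was called, lower, among 35 calls over all genes. The 0 calls of the lists above and of the members did not depend on these scalings. RpS26, a small subunit protein next to the messenger RNA, had 5894 and 5730 FPKM in Piwi RNAi libraries, against 9724 and 9946 FPKM in mCherry RNAi libraries, and fell by 0.76 on the log2 scale (limma adjusted p = 0.0313). These genes took 56.2% and 56.2% of all FPKM in Piwi RNAi libraries, against 63.6% and 62.8% in mCherry RNAi libraries. The mitochondrial ribosomal proteins took 0.416% and 0.403% in Piwi RNAi libraries, against 0.220% and 0.279% in mCherry RNAi libraries. Outside the cytosolic ribosomal protein genes, their share was 0.951% and 0.920% in Piwi RNAi libraries, against 0.603% and 0.752% in mCherry RNAi libraries, so both Piwi RNAi values stayed above both mCherry RNAi values. FPKM is relative within a library, and the part of the cytosolic ribosomal proteins in the shift of all genes was not tested.

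**Figure D4:**
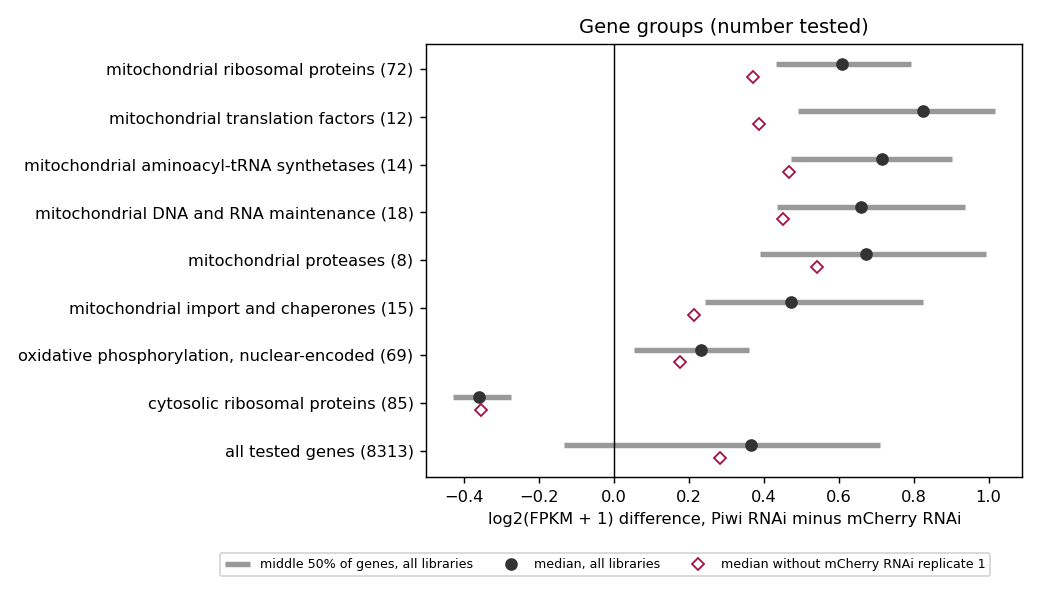
Median (filled circle) and middle 50% (bar) of the difference, Piwi RNAi less mCherry RNAi in log2(FPKM + 1), for each gene group with its number of tested genes, and the median without mCherry RNAi replicate 1 (open diamond). The mitochondrial ribosomal proteins have a median of 0.61 with all libraries and 0.37 without that library, beside 0.37 and 0.28 for all tested genes, and the cytosolic ribosomal proteins have a median of -0.36.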

How the data were processed

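The values are FPKM in 1 table deposited by the authors, with a column per library, and the submitters' processing notes name TopHat and Cufflinks. Their versions, the build, the annotation and the strand setting are not stated in any source used here, so no coordinates are given. FPKM are not counts and no count test was run. Each library had an estimated 1610000 to 2280000 fragments, from the steps of low values of genes with 1 transcript of at least 800 nt (effective length 130 nt shorter), of which 86.6% to 88.7% were whole within 0.1, against 20% by chance.

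Values were taken as log2(FPKM + 1) from the deposited FPKM. Genes averaging 1 FPKM or more were tested in limma 3.58.1 (R 4.3.3) with a mean-variance trend, 2 residual and 2.86 prior degrees of freedom and no covariates. Scripts were tested on simulated data. Alternatives were other pseudocounts, filters, scalings, variance settings, thresholds, a transcript-length adjustment, a replicate block and each library left out. Ensembl annotation 115 gave lengths and neighbours, matching 70 members by identifier and 2 by symbol.

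Genes are named by role, by the highest and lowest levels and by the largest and smallest differences in each subunit with at least 5 FPKM in the higher group. Of each comparison list, the called genes or those of smallest p qualified, and not every one is printed. The members and lists were chosen with earlier results of these data known.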

Additional observations from a re-analysis of the deposited data

How the results depend on the processing

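No mitochondrial ribosomal protein gene passed the test under any alternative run, with a smallest adjusted p between 0.0622 and 0.549 (limma). The total over all genes was less stable. It was 98 as reported, 0 without the expression filter, 167 at a mean of at least 5 FPKM, 35 after quantile normalization, 8 after scaling by the median of ratios, 4 without the trend, 209 with robust variances and 0 after the transcript-length adjustment. It was 253 at a threshold of 0.1 and 0 at 0.01, and 0 with any 1 library left out, where 638 to 3281 genes had an unadjusted p under 0.05. With the replicate block it was 194, with 0 members. Same-numbered libraries had a correlation of deviations of 0.25 over only 2 pairs, so the numbers were not read as pairing. At an unadjusted p under 0.05 in either direction, 12.5% of members and 15.4% of all genes passed after quantile normalization. The shares were 12.5% and 17.7% under the median of ratios, and 20.8% and 23.6% without the trend. With the filter raised to 5 FPKM they were level, at 30.6% and 30.6%. Members had the larger share with other pseudocounts, without the filter, with robust variances, with the block and after the length adjustment (22.2% and 16.6%).

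The members' median was 0.33 under quantile normalization and 0.19 under the median of ratios, and 0.37 to 0.78 with 1 library left out. For the large subunit these were 0.31, 0.16 and 0.39 to 0.73, and for the small subunit 0.37, 0.25 and 0.33 to 0.85. The excess over all genes was 0.39 without the filter and 0.18 with the filter raised to 5 FPKM. This excess was 0.42 after the length adjustment and 0.087 to 0.32 with 1 library left out. Members higher in both Piwi RNAi libraries numbered 31 (quantile), 24 (median of ratios) and 46 (length), beside 32.7%, 25.7% and 32.4% of all genes. At a mean of at least 5 FPKM they numbered 62, beside 59.0%. With 1 library left out they numbered 62 to 68, beside 58.5% to 64.1%. Leaving out a library cannot lower this count. Members below 0 numbered 4 as reported, 16 under the median of ratios and 10 under quantile normalization. Of the members named in the text, mRpL49 (-0.13), mRpS22 (-0.16) and mRpS9 (-0.19) changed sign under the median of ratios, and mRpL53 did so there (-0.26) and under quantile normalization (-0.025). With 1 library left out mRpL27 ranged over -0.33 to 0.032 and mRpL42 over -0.28 to 0.037. The cause was not tested. The counts of members higher in both Piwi RNAi libraries under these alternatives, and the medians of the comparison lists under other scalings, were added after the data were seen.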
